A study of Mus musculus with 15 samples.

Results

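The 10 genes described here encode amino acid transporters that work at the plasma membrane, namely Slc7a5, Slc7a8, Slc3a2, Slc7a1, Slc7a2, Slc38a1, Slc38a2, Slc38a4, Slc1a5 and Slc36a1. They were taken from a list of symbols, and all 10 matched 1 Ensembl gene each among the 55450 genes counted. All 10 were also among the 16920 genes with enough counts to be tested. RNA was sequenced from the gastrocnemius, a calf muscle, of 15 female C57BL/6JN mice older than 17 months, with 1 library per mouse. The labels call the mice robust or frail. Robust mice, with no more than 1 marker of frailty, form the Low group, and frail mice, with 2 or more, form the High group, where a marker is an extreme value, relative to the cohort itself, for body weight, frailty index, treadmill distance, grip strength or rotarod performance. Control mice stayed sedentary in their cages, and Run mice ran downhill on a treadmill (22 degrees, 13 m/min) in 2 bouts and were sampled 24 h after the final bout. There were 4 Low Control (D8, D9, D11 and D98), 4 Low Run (D57, D61, D66 and D68), 3 High Control (D23, D25 and D67) and 4 High Run mice (D49, D52, D53 and D62). All mice were aged females without a transgene, so that no young or male group is part of the design.

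Amino acids enter and leave the muscle fibre through carriers with overlapping substrates. Large neutral amino acids such as leucine are exchanged by the light chains LAT1 (Slc7a5) and LAT2 (Slc7a8), which reach the membrane bound to the heavy chain CD98 (Slc3a2), while arginine and lysine are carried by CAT1 (Slc7a1) and CAT2 (Slc7a2). Glutamine and alanine are concentrated inside the cell by the sodium-coupled carriers SNAT1, SNAT2 and SNAT4 (Slc38a1, Slc38a2 and Slc38a4), glutamine is also exchanged by ASCT2 (Slc1a5), and small neutral amino acids are moved with protons by PAT1 (Slc36a1), which is also found on lysosomes. Leucine and arginine taken up by these carriers are among the signals that activate the kinase mTORC1, a regulator of protein synthesis in muscle.

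The 3 sodium-coupled genes lie side by side on mouse chromosome 15 (GRCm38), all on the minus strand. Slc38a1 spans chr15:96571418-96642913, Slc38a2 chr15:96687392-96699730 and Slc38a4 chr15:96994820-97055956. The gaps between them are 44478 bases and 295089 bases, and 0 protein-coding genes lie in either. The 250 bases upstream of the RefSeq start are printed here for Slc38a2, at chr15:96699729-96699978, and for the 5′-most of the 3 starts of Slc38a4, at chr15:97055957-97056206. They are shown because these neighbours, whose levels are compared below, have start regions of unlike composition. Both are written 5′ to 3′ on the minus strand, from RefSeq on GRCm38.p6, with CG dinucleotides in capitals.
Slc38a2: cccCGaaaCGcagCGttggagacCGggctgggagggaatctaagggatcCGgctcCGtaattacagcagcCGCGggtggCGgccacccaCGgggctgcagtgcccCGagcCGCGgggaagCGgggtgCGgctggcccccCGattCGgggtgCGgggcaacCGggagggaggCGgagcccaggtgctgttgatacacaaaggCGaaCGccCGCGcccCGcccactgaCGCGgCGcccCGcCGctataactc
Slc38a4: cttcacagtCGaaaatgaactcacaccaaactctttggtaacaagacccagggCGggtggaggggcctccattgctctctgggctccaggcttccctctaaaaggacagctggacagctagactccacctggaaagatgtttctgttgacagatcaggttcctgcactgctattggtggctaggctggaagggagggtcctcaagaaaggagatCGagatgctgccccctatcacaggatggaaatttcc
Slc38a2 had 30 CG dinucleotides and a GC content of 72%, and 94.1% of the 32851 upstream regions in the RefSeq table had fewer. Slc38a4 had 3 CG dinucleotides and a GC content of 52.8%, and 29% of the regions had fewer, while its 2 other start regions had 5 each, and 44.4% of the regions had fewer. The median over all regions was 6. Of the 10 transporters, 6 were found in that table (Slc36a1, Slc38a2, Slc38a4, Slc3a2, Slc7a1 and Slc7a8), with 9 start regions among them. The letters TGATGNAAN, a core to which the amino acid response factor ATF4 and its C/EBP partners can bind, were searched on both strands of the whole windows, from 250 bases before each start to 50 after it. They were present in 0 of the 9 windows of these genes, compared to 3.95% of all windows, and their absence says only that these letters are not in these windows.

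Assigned counts per mouse were 19395125 to 30699216, with a median of 25926420. Levels are given as CPM, the counts scaled to a common TMM-normalized library size, and levels of different genes are compared only after division by exon length in kilobases (CPM per kb). On the first principal component, which held 26% of the variance, Low Control mouse D9 was at -76 and High Run mouse D62 at -49.3, while the other 13 mice lay between -14.4 and 19.7. All 9 muscle fibre markers, Acta1 and Ckm among them, were expressed in every mouse, with a summed level between 106666 CPM, in D62, and 170718 CPM. Between mice of the same group, the chi-square per degree of freedom was 15.7 to 191.3, where counting error alone gives about 1. These are separate animals, so the value describes their spread and tests no hypothesis. Because D9 and D62 stood apart, each comparison is given with all 15 mice and without these 2 mice.

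Per length, Slc38a4 and Slc38a2 had the highest median levels of the 10 transporters and Slc38a1 the lowest. Exon length here counts all annotated exons of a gene, whether or not muscle uses them. It was 4261 bases for Slc38a4, 8838 for Slc38a2 and 17236 for Slc38a1, and the order depends on it. The median over 15 mice was 19.6 CPM per kb for Slc38a4, 16.3 for Slc38a2, 12.4 for Slc3a2, 10.6 for Slc1a5 and 9.62 for Slc7a2. These first 5 were not separated mouse by mouse, since each exceeded the next in only 10, 10, 12 and 10 of the 15 mice. Slc7a2 was in turn above Slc7a8, at 4.21 CPM per kb, in all 15 mice, and Slc7a8 was above Slc36a1, at 2.09, in all 15. Slc36a1 exceeded Slc7a5, at 1.37, in 13 mice. Slc7a1, at 0.395, was below Slc7a5 in all 15 mice and above Slc38a1, at 0.0851, in all 15. Within each mouse, the order was the same under division by the library total, since each mouse is then scaled by 1 factor for all genes. Among all tested genes, Slc38a4 stood at percentile 88.3 of the level per length and Slc38a1 at percentile 3.91. The counts behind these values ranged from 12 to 103 per mouse for Slc38a1 and from 1654 to 11173 for Slc38a2.

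**Figure D1:**
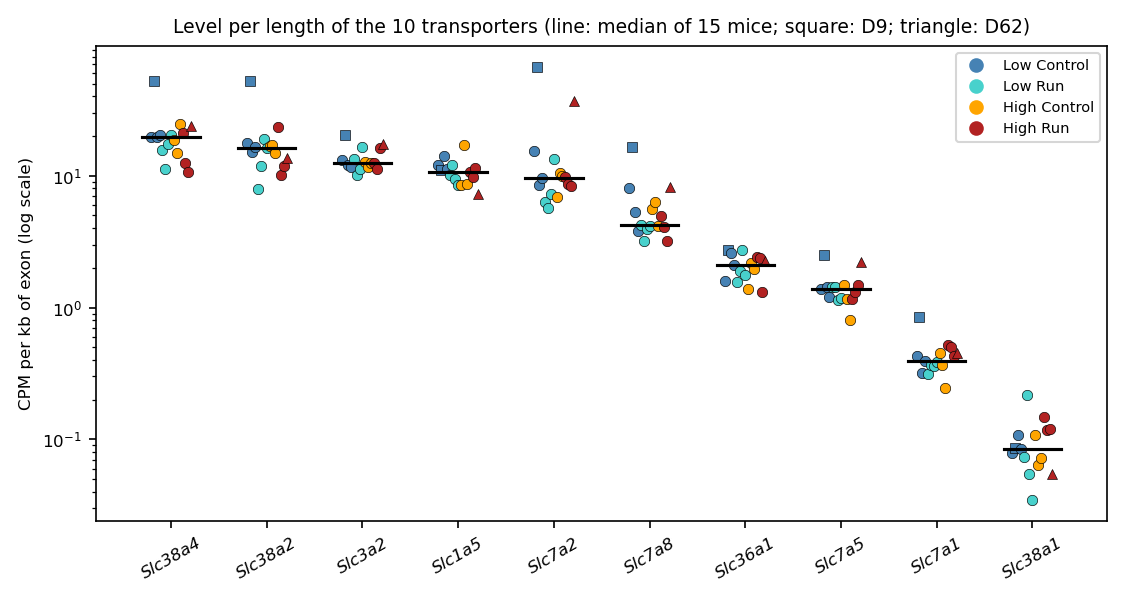
Level of each transporter in CPM per kb of exon (vertical axis, log scale), ordered by the median of 15 mice, which is drawn as a line. Each point is 1 mouse, coloured by group, with D9 as a square and D62 as a triangle. The medians run from 19.6 for Slc38a4 to 0.0851 for Slc38a1, and the square lies above the other 14 mice for 8 of the 10 genes.

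Light and heavy chains of the leucine exchangers were present at unequal levels per length. Slc7a5 mRNA per kb was 0.112 ± 0.0109 of Slc3a2 mRNA per kb in the 4 Low Control mice (mean ± SD), 0.105 ± 0.0281 in the 4 Low Run, 0.0938 ± 0.0265 in the 3 High Control and 0.107 ± 0.0173 in the 4 High Run mice. For Slc7a8 the same ratio was 0.548 ± 0.212, 0.308 ± 0.0395, 0.442 ± 0.108 and 0.358 ± 0.117. The heavy chain thus exceeded either light chain in every mouse, with 0.81 in D9 as the highest of these ratios. In Low Run mice the Slc7a8 ratio lay between 0.254 and 0.349, overlapping the 0.323 to 0.81 of Low Control mice.

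Slc7a8, the LAT2 light chain, was at 40.6, 82.3, 26.7 and 18.9 CPM in Low Control mice D8, D9, D11 and D98. It was at 21.1, 16.1, 19.8 and 20.8 CPM in Low Run mice D57, D61, D66 and D68. The 4 Low Run mice were thus close together, 3 of the 4 Low Control mice were above all of them, and D98 lay within their range. In the High group it was at 28.1, 31.9 and 20.7 CPM in Control mice and at 24.9, 20.4, 15.9 and 41.3 CPM in Run mice, where D62 was the highest of the 7. Slc7a5, the LAT1 light chain, was at 5.08, 9.36, 5.31 and 4.44 CPM in Low Control and 5.3, 5.33, 4.22 and 4.41 CPM in Low Run mice. It was at 5.45, 4.36 and 2.97 CPM in High Control and 4.32, 4.83, 5.54 and 8.28 CPM in High Run mice. Every group of Slc7a5 overlapped every other, and D9 and D62 held its highest values. The heavy chain Slc3a2 was at 46.3, 71.7, 42.4 and 41.3 CPM in Low Control, 47.4, 35.9, 40.0 and 57.8 in Low Run, 44.6, 40.9 and 43.9 in High Control and 43.8, 39.5, 57.4 and 61.9 CPM in High Run mice. D9 and D62 were again its highest mice, and without them its levels differed by 1.61-fold at most, the narrowest spread of the 10 genes over those 13 mice.

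Slc7a2, the CAT2 carrier of arginine and lysine, had the widest range of the 10 genes, 11.7-fold between mice. It was at 140.0, 609.6, 77.4 and 87.9 CPM in Low Control mice D8, D9, D11 and D98 and at 58.2, 52.2, 66.6 and 122.2 CPM in Low Run mice. In High Control mice it was at 63.3, 94.7 and 90.5 CPM, and in High Run mice D49, D52, D53 and D62 at 89.6, 79.1, 76.0 and 340.2 CPM. D9 was 6.94-fold above the median of the other Low Control mice and D62 was 4.3-fold above the median of the other High Run mice, while the remaining 13 mice spanned 2.68-fold and overlapped in all groups. Slc7a1, the CAT1 carrier, was at 4.9, 9.73, 3.67 and 4.55 CPM in Low Control, 3.62, 4.25, 4.13 and 4.41 in Low Run, 5.21, 4.25 and 2.82 in High Control and 6.01, 5.81, 4.9 and 5.2 CPM in High Run mice. D9 was high for Slc7a1 as well, but D62 was not, at 0.895 times the median of the other High Run mice. All 4 High Run mice were above all 4 Low Run mice for this gene.

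Of the sodium-coupled carriers, Slc38a2 was at 156.5, 462.5, 134.1 and 147.1 CPM in Low Control, 69.5, 103.9, 168.5 and 144.4 in Low Run, 149.7, 150.1 and 131.8 in High Control and 205.6, 89.8, 105.0 and 120.6 CPM in High Run mice. Slc38a4 was at 83.6, 224.4, 84.2 and 86.8 CPM in Low Control, 67.5, 47.5, 74.7 and 86.8 in Low Run, 79.5, 63.9 and 104.7 in High Control and 89.8, 53, 45.5 and 101.6 CPM in High Run mice. In both genes D9 was far above its group, by 3.14-fold and 2.67-fold over the median of the other 3 mice, and the other 3 Low Control mice were close together. The lowest levels of the 15 mice were those of running mice, 69.5 CPM of Slc38a2 in D57 and 45.5 CPM of Slc38a4 in D53. Slc38a1 was at 1.35, 1.49, 1.86 and 1.47 CPM in Low Control, 1.26, 3.71, 0.938 and 0.602 in Low Run, 1.85, 1.11 and 1.24 in High Control and 2.55, 2.02, 2.05 and 0.945 CPM in High Run mice. Its highest mouse was D61 and its lowest D68, both Low Run, and neither D9 nor D62 was high.

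Slc1a5, the glutamine exchanger ASCT2, was at 50.0, 46.4, 58.9 and 47.1 CPM in Low Control, 42.3, 49.9, 39.1 and 35.7 in Low Run, 35.2, 70.9 and 36.2 in High Control and 44.4, 40.8, 47.4 and 30.3 CPM in High Run mice. The highest was D25 and the lowest D62, and 3 of the 4 Low Run mice were below all 4 Low Control mice. Slc36a1, the proton-coupled carrier PAT1, was at 8.9, 15.4, 14.7 and 11.7 CPM in Low Control, 8.79, 10.6, 15.3 and 9.92 in Low Run, 7.68, 12.2 and 11.1 in High Control and 13.7, 13.4, 7.45 and 12.8 CPM in High Run mice. All 4 groups of Slc36a1 overlapped.

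**Figure D2:**
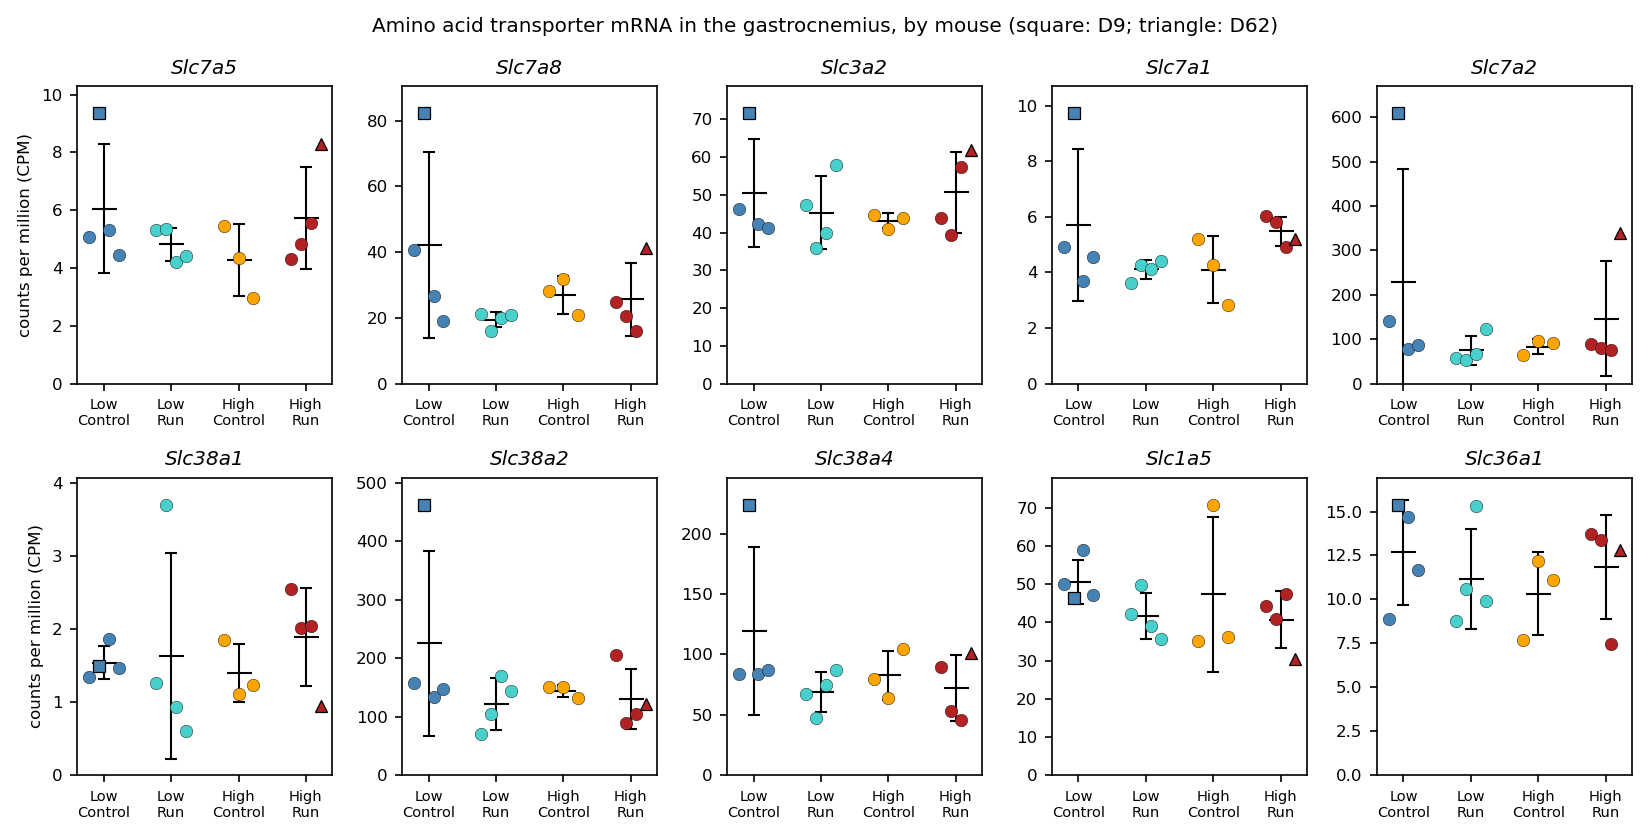
CPM of the 10 transporters in each mouse (linear axes from 0), by group, with the mean and SD as black bars that end at the axis where they would pass below 0. Low Control mouse D9 (square) reaches 609.6 CPM for Slc7a2 and 462.5 CPM for Slc38a2, and High Run mouse D62 (triangle) 340.2 CPM for Slc7a2.

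D9 was the highest of all 15 mice for 8 of the 10 transporters, all but Slc38a1 and Slc1a5, against 22.7% of all tested genes. D9 and D62 held the 2 highest levels for 4 transporters, Slc7a5, Slc7a8, Slc3a2 and Slc7a2, against 13.4% of all tested genes. D9 was more than 0.5 above the gene's median on the log2 scale for 7 transporters, against 22.1% of all tested genes, and D62 for 3, against 17.6%, while in no other mouse was this so for more than 2. Slc7a2 made up 29.6% of the summed CPM per kb of the 10 genes in D9 and 33.0% in D62, with a median of 12.8% over the 15 mice. The summed level of 7 macrophage markers was 65.3 CPM in D9 and 68.6 CPM in D62, within the 48.0 to 156.0 CPM of all mice. All but Cd163 (17.0 and 16.8 CPM, median 14.2) were below their median in both mice, such as Mrc1 (10.3 and 9.39, median 17.7). The 6 fibroblast markers summed to 722.1 and 600.0 CPM, the 2 lowest sums of the 15 mice, which spanned 600.0 to 1605. D9 was the lowest of all mice for 4 of the 6, Col1a1 (13.3 CPM, median 86.1), Col1a2 (35.7, median 140.3), Col3a1 (12.5, median 88.9) and Lum (12.9, median 43.7), and D62 was at 24.3, 45.9, 19.6 and 13.2 CPM for these genes. Dcn (623.0 CPM, median 568.4) and Pdgfra (24.8 CPM, median 24.6) were not low in D9. In D62 they were at 480.5 and 16.6 CPM. The 6 endothelial markers summed to 322.3 and 350.0 CPM, with 359.3 CPM as the highest of all mice. Its members went both ways, with Cldn5, a tight junction component, at 49.2 and 51.2 CPM (median 11.8) but the receptor gene Tek at 16.6 and 12.6 CPM (median 18.6) and Kdr at 28.6 and 28.9 CPM (median 31). The 5 Schwann cell markers summed to 136.7 CPM in D9 and to 373.0 CPM in D62, the highest of the 15 mice. The 5 satellite cell markers summed to 61.8 and 89.1 CPM, again with D62 the highest, where Cdh15, an adhesion protein of myogenic cells, was at 71.7 CPM (median 32.5), while the stem cell factor gene Pax7 was at 0.756 CPM (median 2.06), the lowest of all mice, and Myod1 at 6.46 CPM (median 16.2). Of the muscle fibre markers, D62 was the lowest of all mice for Acta1, Mb and Myh4 and the highest for the slow-fibre genes Myh7 (1649 CPM, median 927.6) and Tnni1 (310.6 CPM, median 152.6). No marker of these lists was at 0 in any mouse, and the part of other cell types in the transporter levels was not tested. In these whole-muscle samples, fewer cells of a type and less RNA per cell cannot be told apart.

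**Figure D3:**
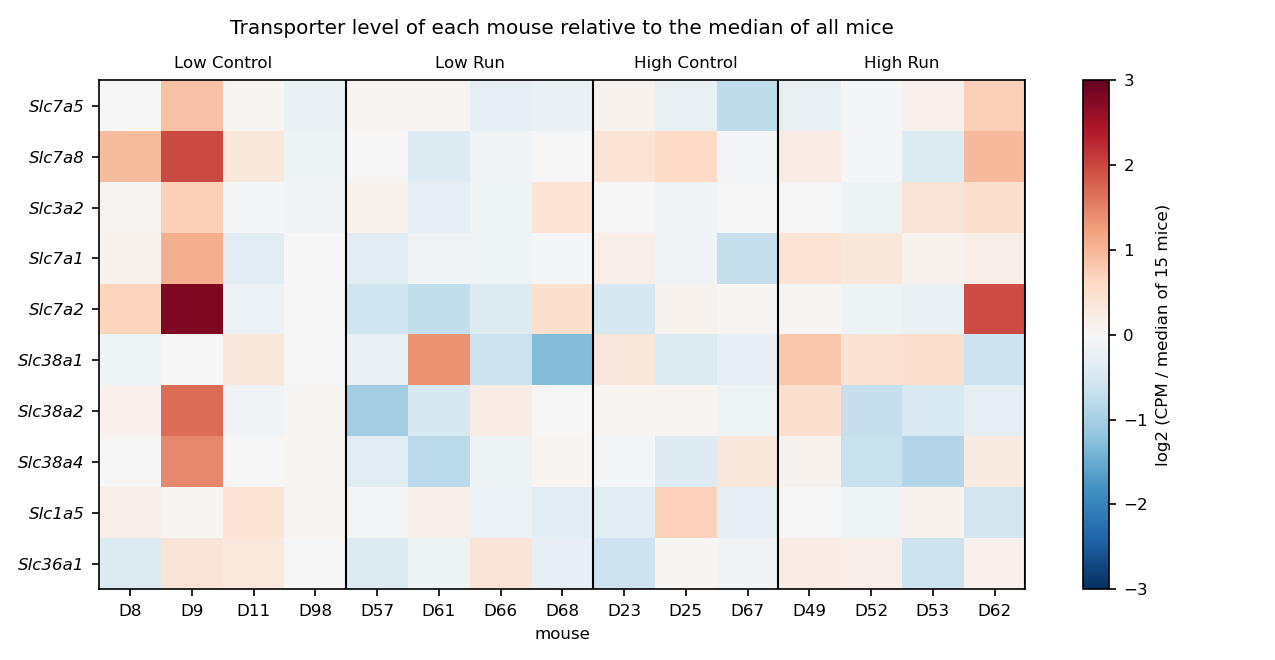
Level of each transporter (rows) in each mouse (columns) as log2 of its CPM over the median of the 15 mice, from blue (lower) to red (higher). The D9 column is red in 7 genes by more than 0.5, and the D62 column is red in 3, with Slc7a2 the darkest cell of both.

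The running response of the Low group was addressed by comparing Low Run to Low Control mice. Of the 10 transporters, 9 were lower in Low Run mice, all but Slc38a1 (48.1% of all tested genes were lower), and Slc38a1 was lower too under voom, but 0 were called at an FDR of 0.1 by the quasi-likelihood test of edgeR, which called 0% of all genes. At an unadjusted p under 0.05, 4 were lower and 0 higher, compared to 7.52% of all tested genes lower. These 4 were the light chain Slc7a8 (log2 fold change -1.12 ± 0.37 SE, FDR = 0.358), the arginine carrier Slc7a2 (-1.61 ± 0.63, FDR = 0.358) and the neighbours Slc38a2 (-0.89 ± 0.38, FDR = 0.359) and Slc38a4 (-0.79 ± 0.34, FDR = 0.359). The 6 others were smaller in size, from -0.48 ± 0.26 for Slc7a1 to 0.10 ± 0.45 for Slc38a1. The median of the 10 was -0.40, and that of all tested genes 0.02. DESeq2 gave the same 4 transporters at this p and 0 at an FDR of 0.1, and voom with sample quality weights gave Slc7a8 alone.

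These differences changed with D9. Without Low Control mouse D9, 0 of the 10 transporters had an unadjusted p under 0.05, where 5.03% of all genes did. Leaving out Low Run mouse D57 or D61 left 1, and the share of all genes in these fits is not given. Without both D9 and D62, Slc7a8 was the 1 transporter at this p, at -0.57 ± 0.23 (FDR = 0.65), where 7.33% of all genes were. Slc7a2 was then at -0.46 ± 0.27 (FDR = 0.661), Slc38a2 at -0.27 ± 0.29 (FDR = 0.772) and Slc38a4 at -0.31 ± 0.24 (FDR = 0.705), and the median of the 10 was -0.19. Slc7a1 moved to -0.10 ± 0.20 (FDR = 0.884), and Slc3a2, at -0.16 with all mice, changed its sign to 0.05. In the same comparison, 2 of 5 adipocyte markers were lower at this p, Cidec and Lep, and 4 of 5 without D9 and D62. Of 7 macrophage markers, 2 were higher, Ptprc (1.08 ± 0.40, FDR = 0.358) and C1qa (0.63 ± 0.26, FDR = 0.358), and 1 was lower, Cd163 (-0.59 ± 0.24, FDR = 0.358), and of 9 muscle fibre markers 1 was lower, the fast myosin gene Myh4 (-0.48 ± 0.17, FDR = 0.358). The satellite cell marker Vcam1 was higher (0.60 ± 0.24, FDR = 0.358). With D9 and D62 left out, Myh4, Cd163 and Ptprc were still at this p, C1qa and Vcam1 were not, and the erythroid markers Hba-a1 and Alas2 and the Schwann cell marker Mbp were lower. The adipocyte markers summed to 110.1 to 189.4 CPM in Low Control and 85.9 to 158.4 CPM in Low Run mice, and the macrophage markers to 65.3 to 118.8 and 84.4 to 113.6 CPM, with none at 0, and the part of these cell types in the Slc7a8 difference was not tested.

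In the High group, 6 of the 10 transporters were higher in High Run than in High Control mice (57.2% of all tested genes were higher) and 4 lower, and 0 passed an FDR of 0.1 in edgeR, against 0% of all genes. At an unadjusted p under 0.05 there were 0 transporters, compared to 5.18% of all tested genes in either direction, 0 by DESeq2 and 1, Slc7a1, by voom, and there were 0 without D9 and D62, against 6.85% of all genes. The largest difference was that of Slc7a2, at 0.82 ± 0.67 (95% confidence interval -0.61 to 2.25), which was -0.03 ± 0.29 without D9 and D62. Slc7a5 was at 0.43 ± 0.29 and Slc7a1 at 0.42 ± 0.29. Without the 2 mice, Slc7a5 was at 0.19 ± 0.21 and Slc7a1 at 0.43 ± 0.21 (FDR = 0.743). With each mouse left out in turn, Slc7a1 ranged from 0.21 to 0.63. Slc7a8 was at -0.07 ± 0.40 with all mice and at -0.41 ± 0.25 without D9 and D62, the same sign as in the Low group. This sign was not stable, since Slc7a8 ranged from -0.41 to 0.10 with each mouse left out in turn. Slc38a2 (-0.14 ± 0.41), Slc38a4 (-0.19 ± 0.36) and Slc1a5 (-0.22 ± 0.23) differed by less than their SE, and the intervals of Slc38a2, -1.01 to 0.72, and of Slc38a4, -0.96 to 0.58, include their Low group differences of -0.89 and -0.79. In the same comparison, all 5 erythroid markers (1.87 to 2.32), the macrophage markers Cd68 (1.01 ± 0.26) and C1qa (0.79 ± 0.28) and Tnni1 were higher and Myh4 was lower at an unadjusted p under 0.05, and without D9 and D62 all 5 erythroid (1.82 to 2.43) and 5 of 7 macrophage markers were higher. The erythroid markers summed to 384.5 to 3860 CPM in High Run and 312.3 to 487.6 CPM in High Control mice and the macrophage markers to 68.6 to 156.0 and 48.0 to 83.6 CPM, and their part in the transporter values was not tested.

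The Frailty × Run interaction, the log2 fold change of running in the High group minus that in the Low group, tests whether the groups responded differently. It was positive for all 10 transporters, where 53.1% of all tested genes were positive, although Slc38a2 was at -0.01 under voom, Slc1a5 at -0.00203 under upper-quartile normalization and Slc38a4 at -0.10 without D9 and D62. No transporter passed an FDR of 0.1 in edgeR, against 0% of all genes, and none did in DESeq2 or voom, which called 0 genes each. At an unadjusted p under 0.05, edgeR and DESeq2 gave 2, both carriers of arginine, against 5.24% of all tested genes in this direction. Slc7a2 was at 2.43 ± 0.92 (FDR = 0.6) and Slc7a1 at 0.89 ± 0.39 (FDR = 0.6). Slc7a8 was at 1.05 ± 0.55 (FDR = 0.6) and Slc7a5 at 0.76 ± 0.39 (FDR = 0.6), with lower 95% confidence bounds of -0.11 and -0.07. Without D9 and D62, Slc7a8 was at 0.17 ± 0.34 and Slc7a5 at 0.24 ± 0.29. The count was 0 without D9, 4 without D98, and 1 without D57, D25, D67, D52 or D62. The share of all genes in these fits is not given, so the counts show only how they moved with single mice. Without both D9 and D62, 0 transporters remained at this p, against 4.42% of all genes, with Slc7a2 at 0.43 ± 0.40 and Slc7a1 at 0.54 ± 0.29 (FDR = 0.984), and the median of the 10 moved from 0.67 to 0.22. All 5 erythroid markers (3.06 to 3.58), the Schwann cell marker Mbp, the macrophage marker Cd163 and the endothelial marker Cldn5 were higher for the interaction at this p. Without both mice these were all 5 erythroid markers (3.24 to 3.90), 4 of 7 macrophage and 2 of 6 endothelial markers, Kdr and Vwf, and their part in the transporter values was not tested.

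**Figure D4:**
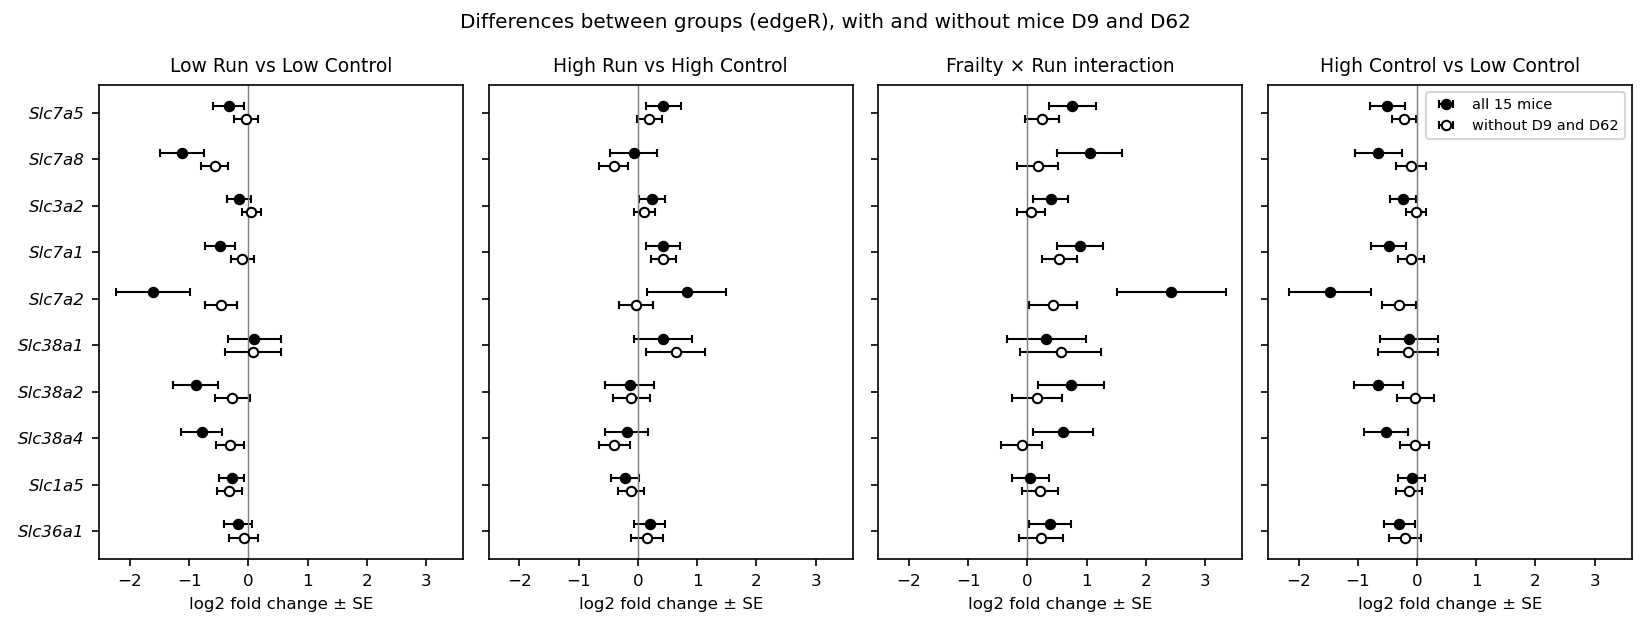
Log2 fold change ± SE of the 10 transporters in 4 comparisons (horizontal axes), from edgeR with all 15 mice (filled) and without D9 and D62 (open). Slc7a2 moves most, from 2.43 to 0.43 for the interaction and from -1.61 to -0.46 in Low mice. In High mice Slc7a1 is at 0.42 and 0.43 in the fits drawn, and it ranged from 0.21 to 0.63 with each mouse left out.

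Frailty without running was addressed by comparing High Control to Low Control mice. All 10 transporters were lower in High Control mice, from -0.09 ± 0.23 for Slc1a5 to -1.47 ± 0.69 for Slc7a2, where 52.8% of all tested genes were lower. In edgeR, 0 passed an FDR of 0.1, against 0% of all genes, and 1, Slc7a2, had an unadjusted p under 0.05 (FDR = 0.704), against 5.86% of all genes in either direction. DESeq2 gave the same 1 and voom 0. The Low Control group includes D9, and without D9 or without D67 the count was 0, while without D11 or D98 it was 2. For these fits the share of all genes is not given. Without D9 and D62 the count was 0 as well, against 3.8% of all genes, and the median of the 10 moved from -0.49 to -0.12, with Slc7a2 at -0.30 ± 0.29 and Slc38a2 at -0.03 ± 0.31. This comparison and the one within the Low group share the same 4 Low Control mice, so their values are not independent. In High Control mice 3 of 5 erythroid markers (-1.50 to -1.82) and the macrophage marker Cd163 were lower at an unadjusted p under 0.05, and without D9 and D62 all 5 erythroid markers (-1.73 to -2.04), Cd68, Cd163 and Kdr were, and their part in the transporter values was not tested.

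After running, High Run and Low Run mice were compared. No transporter passed an FDR of 0.1 (0% of all genes), and 0 had an unadjusted p under 0.05 in edgeR or DESeq2, where 2.51% of all genes did in edgeR, while voom gave 1, Slc7a1. Slc7a1 was the 1 transporter whose groups did not overlap, at 4.9 to 6.01 CPM in High Run and 3.62 to 4.41 CPM in Low Run mice, and 0.721% of all tested genes were separated in this direction. Its mean was 5.48 ± 0.517 CPM in High Run (SD, n = 4) and 4.1 ± 0.345 CPM in Low Run mice (n = 4), a log2 fold change of 0.42 ± 0.26 (FDR = 0.999). Without D9 and D62 it was 0.44 ± 0.20 (FDR = 0.999), where 2.73% of all genes had an unadjusted p under 0.05. With each mouse left out in turn, Slc7a1 ranged from 0.36 to 0.47. Leaving out D61 gave 1 transporter at this p. It need not be Slc7a1, since Slc38a1 ranged from -0.08 to 1.00 in the fits that left out 1 mouse. The counts of Slc7a1 were between 59 and 235 per mouse. In the same comparison all 5 erythroid markers and 4 of 5 Schwann cell markers were higher in High Run mice at an unadjusted p under 0.05, and without D9 and D62 all 5 and 3 of 5. Of the macrophage markers 1 of 7, and 2 without D9 and D62, and of the endothelial markers 1 of 6 were higher as well. The erythroid markers summed to 384.5 to 3860 CPM in High Run and 243.5 to 825.3 CPM in Low Run mice and the Schwann cell markers to 132.0 to 373.0 and 98 to 168.9 CPM, with none at 0, and their part in the Slc7a1 difference was not tested.

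Averaged over the Low and High groups, the running effect had 0 transporters at an FDR of 0.1 in edgeR, against 0% of all genes, and 1 at an unadjusted p under 0.05, against 8.63% of all genes in either direction. This was Slc7a8, at -0.59 ± 0.27 (FDR = 0.568). Without D9 and D62 it was at -0.49 ± 0.17 (FDR = 0.363), where 9.79% of all genes had such a p, while it was at -0.32 ± 0.21 (FDR = 0.741) without D9 alone and at -0.77 ± 0.26 (FDR = 0.316) without D62 alone. DESeq2 and voom gave Slc38a4 beside it, which edgeR had at -0.49 ± 0.25 (FDR = 0.591). The count was 0 without D9, D57, D61, D52 or D53, 2 without D98, D49 or D62 and 3 without D11, and the share of all genes in these fits is not given. The effect of Slc7a5, 0.05 ± 0.19, had a 95% interval of -0.36 to 0.47, and that of Slc3a2, 0.04 ± 0.15, an interval of -0.28 to 0.35. Slc7a1 was at -0.03 ± 0.19 and, without D9 and D62, at 0.16. In the same comparison, Myh4 was at -0.46 ± 0.13 (FDR = 0.413) and the slow-fibre gene Tnni1 at 0.61 ± 0.19 (FDR = 0.456), the 2 of 9 muscle fibre markers with an unadjusted p under 0.05. Leaving out D9 and D62, they were at -0.45 ± 0.13 (FDR = 0.288) and 0.43 ± 0.18 (FDR = 0.459). At this p, 3 of 7 macrophage markers were higher and 3 of 5 adipocyte markers lower, and 5 of 7 and 4 of 5 without D9 and D62, and the satellite cell marker Vcam1 was higher in both fits. Their part in the Slc7a8 value was not tested.

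Across the 15 mice, which share the groups above, the log2 CPM of the transporters were correlated in part, as a description without a test. The median Pearson's r over the 45 pairs was 0.36, and it was 0.05 over the 13 mice without D9 and D62. The light chain Slc7a8 and Slc7a2 had r = 0.86 (0.54 without the 2 mice), and the chromosome 15 neighbours Slc38a2 and Slc38a4 had r = 0.80 (0.59). A relation between levels and the CG content of the start regions printed above was not tested. Slc38a1, which lies beside these neighbours, had r = -0.09 (-0.17) with Slc38a2 and -0.34 (-0.46) with Slc38a4. The exchanger partners Slc7a5 and Slc3a2 had r = 0.66 (0.11), and Slc7a8 and Slc3a2 0.60 (-0.04).

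The genes whose pattern was most like that of a transporter, by Pearson's r of log2 CPM over 15 mice, were looked up for 6 of them. Slc7a2 was nearest to Lrrc58 (r = 0.968, and 0.887 over the 13 mice), B4galt1 (0.962 and 0.818), a galactosyltransferase, and Mocs1 (0.957 and 0.799), an enzyme of molybdenum cofactor synthesis. Lrrc58 was at 272.6 CPM in D9 and 204.7 CPM in D62, where the other 13 mice were between 31.7 and 50.8 CPM. Slc38a2 was nearest to the ubiquitin ligase gene Ubr3 (0.935 and 0.841), Cab39 (0.934 and 0.873) and the site-2 protease gene Mbtps2 (0.933 and 0.883), and Slc38a4 to Fam8a1 (0.929 and 0.833), Abhd17b (0.927 and 0.812) and Gm6395 (0.922 and 0.796). Slc3a2 was nearest to the sorting nexin gene Snx5 (0.968 and 0.943), AC114990.1 (0.96 and 0.932) and the proteasome subunit gene Psma7 (0.96 and 0.904). Slc7a5 was nearest to Zfp707 (0.923 and 0.797), Pcid2 (0.915 and 0.715) and Arid5a (0.91 and 0.7), and Slc7a1 to Lrrc29 (0.873 and 0.849), Zbtb25 (0.861 and 0.676) and Gm15934 (0.859 and 0.668). When D9 and D62 were left out, 4 of these 18 genes were still among the 3 nearest, namely Lrrc58 for Slc7a2, Cab39 and Mbtps2 for Slc38a2 and Lrrc29 for Slc7a1.

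Other transporters and genes of the same pathways were compared as lists. Of 22 other plasma membrane amino acid transporters, 15 were tested, and in Low mice 12 were lower (48.1% of all tested genes were) and 3 higher after running, with a median of -0.30. At an unadjusted p under 0.05 there were 2 lower (7.52% of all tested genes), the large neutral amino acid carrier Slc43a2 (-1.12 ± 0.36, FDR = 0.358) and Slc36a2 (-0.73 ± 0.33, FDR = 0.362), a relative of Slc36a1, and 0 higher. Without D9 and D62 there were 3 lower (3.65% of all tested genes), Slc36a2 (-0.98 ± 0.27, FDR = 0.65), Slc43a1 (-1.21 ± 0.54, FDR = 0.65) and the light chain Slc7a6 (-0.40 ± 0.17, FDR = 0.65). For the interaction, Slc43a2 (1.42 ± 0.53, FDR = 0.6) and Slc7a6 (1.29 ± 0.53, FDR = 0.6) were higher (5.24% of all tested genes), and 0 without D9 and D62. In High mice 0 of the 15 had such a p, against 5.18% of all genes in either direction. In High Control compared to Low Control mice Slc43a2 was lower (-1.09 ± 0.39, FDR = 0.704), against 5.86% of all genes in either direction. Without D9 and D62 it was at -0.55 ± 0.30. For the average effect 0 had such a p with all mice, against 8.63% of all genes. Without D9 and D62, where 9.79% of all genes had such a p, 2 were lower. These were Slc36a2 (-0.55 ± 0.20, FDR = 0.383) and Slc43a1 (-1.03 ± 0.40, FDR = 0.423). Slc36a2 was then also higher in High Run than in Low Run mice (0.67 ± 0.28, FDR = 0.999), against 2.73% of all genes. With all mice 0 of the 15 had such a p in that comparison, against 2.51% of all genes. None of the 5 pathway lists, these included, held a gene at an FDR of 0.1 in any of the 6 comparisons by edgeR.

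Of 32 genes of the amino acid response, which the factor ATF4 activates when amino acids are scarce, 30 were tested. In Low mice, 4 were lower after running at an unadjusted p under 0.05, where 7.52% of all tested genes were, namely the tRNA synthetase genes Aars (-0.51 ± 0.16, FDR = 0.358) and Mars (-0.58 ± 0.22, FDR = 0.358), the lipoprotein receptor gene Vldlr (-1.08 ± 0.33, FDR = 0.358) and Ppp1r15a (-1.52 ± 0.63, FDR = 0.358), a phosphatase subunit that counteracts the stress response, and 1 was higher, the proline synthesis gene Pycr1 (0.51 ± 0.22, FDR = 0.358). When D9 and D62 were left out, 3 were lower (3.65% of all tested genes), Vldlr (-0.58 ± 0.23, FDR = 0.65), Aars (-0.34 ± 0.14, FDR = 0.65) and Cth (-0.53 ± 0.24, FDR = 0.65). Of 17 genes of amino acid sensing at mTORC1, all tested, 4 were lower in this comparison, again beside 7.52% of all tested genes, Flcn (-0.73 ± 0.26, FDR = 0.358), Mtor (-0.46 ± 0.18, FDR = 0.358), Bmt2 (-0.44 ± 0.19, FDR = 0.358) and Fnip1 (-0.40 ± 0.17, FDR = 0.359). Flcn, which acts on the lysosome together with Fnip1, was also lower without D9 and D62 (-0.43 ± 0.16, FDR = 0.65), and Rragb was then higher (0.41 ± 0.19, FDR = 0.65). In High mice, 0 genes of either list had such a p with all mice, against 5.18% of all genes, and without D9 and D62 the pseudokinase gene Trib3 was higher (0.75 ± 0.28, FDR = 0.645), where 6.85% of all genes had such a p. For the interaction, 4 genes of these lists had an unadjusted p under 0.05, against 7.93% of all genes in either direction. Trib3 (1.15 ± 0.53, FDR = 0.6), the translation repressor gene Eif4ebp1 (2.45 ± 1.05, FDR = 0.6) and Mtor (0.69 ± 0.26, FDR = 0.6) were higher and Pycr1 (-0.83 ± 0.31, FDR = 0.6) was lower. Once D9 and D62 were left out, Eif4ebp1 was at 0.17 ± 0.54, Trib3 at 0.55 ± 0.38 and Mtor at 0.55 ± 0.26, and Pycr1, at -0.55 ± 0.23 (FDR = 0.984), was the 1 gene at this p, against 4.42% of all genes. In High Control compared to Low Control mice, Mtor (-0.53 ± 0.19, FDR = 0.704), Fnip1 (-0.42 ± 0.19, FDR = 0.704) and Aars (-0.39 ± 0.18, FDR = 0.704) were lower and Pycr1 (0.51 ± 0.23, FDR = 0.704) was higher at this p, against 5.86% of all genes in either direction. Of these, Mtor (-0.43 ± 0.19, FDR = 0.996) was also so without D9 and D62, against 3.8% of all genes. For the average running effect, Vldlr (-0.59 ± 0.24, FDR = 0.52), Aars (-0.27 ± 0.12, FDR = 0.562) and Bmt2 (-0.31 ± 0.14, FDR = 0.555) were lower, against 8.63% of all genes in either direction. With D9 and D62 left out, Vldlr (-0.40 ± 0.17, FDR = 0.48), Ppp1r15a (-0.72 ± 0.28, FDR = 0.423) and Flcn (-0.39 ± 0.12, FDR = 0.311) were lower and Trib3 (0.48 ± 0.19, FDR = 0.444) was higher, where 9.79% of all genes had such a p.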

How the data were processed

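Gastrocnemius polyA RNA from 15 mice was sequenced, and groups were taken from the labels. The authors aligned the reads with STAR to mm10 and deposited whole-number counts per Ensembl gene, without normalization, from read pairs that aligned uniquely on the gene's strand. The submitters' processing notes name STAR 2.7.9a, Subread 2.0.3 and DESeq2 1.32.0. The authors also deposited a variance-stabilized version of them, close to log2 for abundant genes, which was used only as an alternative for correlations. No column was left out (0 unused). Symbols, coordinates and exon lengths were taken from GENCODE M21 (GRCm38), which gives a symbol to 55190 of 55450 genes, and start regions from RefSeq.

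Counts were kept by filterByExpr, normalized by TMM and tested with edgeR 4.0.16 (quasi-likelihood F-test, R 4.3.3, 1 mean per group, all 15 mice), with Benjamini-Hochberg adjustment over 16920 genes and calls at an FDR of 0.1, the threshold of the study. SE are the log2 fold change over the square root of F, and 95% intervals use the t distribution at the degrees of freedom of that test. For correlations, CPM were log2 transformed after a prior count of 2. The code was checked on simulated counts with known changes. Total counts ranged from 19395125 to 30699216 per mouse. Alternatives were DESeq2 1.42.0, voom with quality weights (limma 3.58.1), RLE and upper-quartile normalization, no filter, at least 10 counts in every mouse, fits to the 2 groups compared, an FDR of 0.05, each mouse left out, and D9 and D62 left out together. For the gene lists this last was added after seeing the data. The transporters and lists were chosen with earlier results of these data known. Named genes were the 10 transporters, the 3 nearest genes of 6 of them, and list genes at an unadjusted p under 0.05, at most 5 per list and comparison. Slc7a5 and Slc7a2 overlap a gene on the opposite strand. The values of 1 marker gene are not reported here.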

Additional observations from a re-analysis of the deposited data

Results flagged for a closer look

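In 30 groups of 4 mice (10 transporters in the 3 groups of that size), 6 values lay apart from the others of their group by a gap above the 95% critical value of Dixon's test, where chance gives about 1 in 20 groups. Over all tested genes, which rest on the same 12 mice, 7.83% of such groups held a value this far apart, and a high value of D9 did so for 5.67% and one of D62 for 3.43% of all tested genes. Of these, 4 were Low Control mouse D9, with Slc7a2 at 609.6 CPM (gap 0.882 of the range), Slc38a2 at 462.5 CPM (0.932), Slc38a4 at 224.4 CPM (0.977) and Slc3a2 at 71.7 CPM (0.836). High Run mouse D62 stood apart for Slc7a2 at 340.2 CPM (0.949). The last was a low value, Slc36a1 at 7.45 CPM in High Run mouse D53 (0.859).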

How the results depend on the processing

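No transporter passed an FDR of 0.1 in any comparison under any alternative run, an FDR of 0.05 included. Outside the fits that left out 1 mouse, 444 log2 fold changes of transporters in the 6 comparisons kept their direction and 16 reversed. In the Low and High groups and for the interaction these were Slc38a1 in Low mice (-0.15) and Slc38a2 for the interaction (-0.01) under voom, Slc1a5 for the interaction (-0.00203) under upper-quartile normalization, and Slc3a2 in Low mice (0.05), Slc7a2 in High mice (-0.03) and Slc38a4 for the interaction (-0.10) without D9 and D62. For High Run against Low Run they were Slc38a2 (-0.10) and Slc38a4 (-0.08) under voom, and Slc38a4 (-0.14) and Slc1a5 (0.08) without D9 and D62. For the average effect they were Slc36a1 (-0.01) under DESeq2 and under RLE normalization, Slc3a2 (-0.03) and Slc7a1 (0.23) under voom, and Slc7a1 under upper-quartile normalization (0.02) and without D9 and D62 (0.16). The number of transporters at an unadjusted p under 0.05 moved in these fits: in Low mice to 1 under voom and to 1 without D9 and D62, in High mice to 1 under voom, for the interaction to 1 under voom and 0 without D9 and D62, and for High Control against Low Control to 3 without a filter and 0 under voom, upper-quartile normalization, the filter of at least 10 counts, the fit to 2 groups and without D9 and D62. It moved to 1 for High Run against Low Run under voom, without a filter, in the fit to 2 groups and without D9 and D62, and for the average effect to 2 under DESeq2, 2 under voom and 3 without a filter. The cause was not tested. The median r among the transporters was 0.05 without D9 and D62 and 0.37 from the variance-stabilized values, beside 0.36.

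With each mouse left out in turn, these counts ranged from 0 to 5 in Low mice, 0 to 4 for the interaction, 0 to 2 for High Control against Low Control, 0 to 1 for High Run against Low Run and 0 to 3 for the average effect, and were 0 throughout in High mice. For these fits, the share of all genes at this p is given only for Low mice without D9. Reversals occurred in Low mice for Slc3a2 (range -0.30 to 0.05) and Slc38a1 (-0.72 to 0.36), in High mice for Slc7a8 (-0.41 to 0.10), Slc7a2 (-0.03 to 1.03), Slc38a4 (-0.40 to 0.01) and Slc1a5 (-0.40 to 0.19), for the interaction for Slc1a5 (-0.12 to 0.46), for High Control against Low Control for Slc1a5 (-0.50 to 0.08) and Slc38a1 (-0.39 to 0.02), for High Run against Low Run for Slc38a1 (-0.08 to 1.00), Slc38a2 (-0.22 to 0.30), Slc38a4 (-0.14 to 0.24), Slc1a5 (-0.12 to 0.08) and Slc36a1 (-0.02 to 0.27), and for the average effect for Slc7a5 (-0.07 to 0.19), Slc3a2 (-0.04 to 0.14), Slc7a1 (-0.13 to 0.15), Slc7a2 (-0.83 to 0.18), Slc38a1 (-0.15 to 0.39) and Slc36a1 (-0.10 to 0.09). No paired analysis was possible because each mouse belongs to 1 group and the animal numbers are not shared between groups. Depth limits Slc38a1 most, with 12 to 103 counts per mouse. Nothing in the labels says whether libraries were prepared in batches.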

Other observations

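Of 10 transporters of lysosomes and other compartments inside the cell, 9 were tested. At an unadjusted p under 0.05, 1 of them, the peptide and histidine carrier Slc15a3, was higher in Low Run than in Low Control mice (1.39 ± 0.45, FDR = 0.358) and for the average running effect (1.01 ± 0.33, FDR = 0.456), and it was at 1.31 ± 0.45 (FDR = 0.65) and 1.09 ± 0.33 (FDR = 0.301) without D9 and D62. Its median level was 1.17 CPM. For the interaction, Slc15a4 was higher at this p (1.55 ± 0.70, FDR = 0.6), and it was at 0.13 ± 0.28 without D9 and D62. In either direction, 13.4% of all tested genes had such a p in Low mice and 8.63% for the average effect, and 7.93% for the interaction. Of 14 enzymes that use glutamine, arginine or leucine, 13 were tested, and the nitric oxide synthase genes Nos1 (-0.70 ± 0.23, FDR = 0.358) and Nos3 (-0.47 ± 0.21, FDR = 0.367) were lower in Low Run mice at this p, where 7.52% of all tested genes were. Without D9 and D62, Nos1 was at -0.69 ± 0.23 (FDR = 0.65) and Nos3 at -0.24 ± 0.14 (FDR = 0.661). The alanine transaminase gene Gpt2 was lower in High Run than in High Control mice, at -0.61 ± 0.26 (FDR = 0.956), and at -0.90 ± 0.20 (FDR = 0.424) without D9 and D62, where 5.18% and 6.85% of all tested genes had such a p in either direction. For the average effect Nos1 (-0.53 ± 0.17, FDR = 0.456) and Gpt2 (-0.49 ± 0.18, FDR = 0.486) were lower at this p, and the creatine synthesis gene Gatm was higher in High Run than in Low Run mice (0.64 ± 0.25, FDR = 0.999), where 2.51% of all tested genes had such a p. In the fit without D9 and D62, Nos1 was at -0.47 ± 0.17, Gpt2 at -0.54 ± 0.13 and Gatm at 0.43 ± 0.23 for these comparisons. Gpt2 was then at -0.71 ± 0.27 (FDR = 0.984) for the interaction, where 4.42% of all genes had such a p. In that fit Gpt2 was also higher in High Control than in Low Control mice (0.46 ± 0.20, FDR = 0.996), against 3.8% of all genes. None of these passed an FDR of 0.1 in edgeR.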
